A study of Homo sapiens with 4 samples.

Results

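The metalloproteases of the ADAM, ADAMTS and MMP families and their TIMP inhibitors were followed in MDA-MB-231 cells after knockdown of the histone demethylase KDM1A. Members were taken by symbol, as every row beginning with ADAM, ADAMTS, ADAMTSL or MMP and a number, or with TIMP1 to TIMP4. This gave 78 of the 23228 genes in the count tables: 25 ADAM, 20 ADAMTS, 5 ADAMTSL, 24 MMP and 4 TIMP symbols. Of these, 71 are protein-coding in the GENCODE annotation and 7 are not: the antisense transcript ADAMTS9-AS2 and the pseudogenes or non-coding loci ADAM1, ADAM3A, ADAM5P, ADAM6, ADAM21P1 and MMP23A. MDA-MB-231 is an established line of triple negative breast cancer. Its stem-like fraction, sorted by the ALDEFLUOR assay for aldehyde dehydrogenase activity and grown in MammoCult medium, stably expressed either a control shRNA or an shRNA against KDM1A from lentiviral particles, with 2 libraries in each group. Both groups thus carried a lentiviral shRNA, and nothing in the labels names another KDM1A shRNA, a rescue, or separate cultures behind the 2 libraries of a group. Every p-value below thus reflects how far these libraries scattered, and that scatter may be technical.

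ADAMs are membrane-anchored proteases that release the outer parts of growth factors, cytokines and receptors, a step known as shedding. ADAMTS enzymes are secreted relatives that cut proteoglycans, procollagens and other matrix proteins, while ADAMTS-like proteins share their ancillary domains and lack the protease domain. MMPs cut collagens and other matrix components, several of them from the cell membrane, and the TIMPs block MMPs and, to differing degrees, ADAMs and ADAMTS enzymes. In breast cancer these families are known for matrix invasion and for release of EGF receptor ligands.

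The target gene KDM1A had 4660 reads in control library 1, 4059 in control library 2, and 561 and 649 in the corresponding knockdown libraries, so both knockdown libraries matched their labels. Reads assigned to genes numbered 23902900 to 26923678 per library, so that 3 reads, the limit that a count of 0 allows, stood for 0.112 to 0.125 CPM, the unit of reads scaled to a fixed library total, here by the TMM method. The 14 genes chosen as typical of MDA-MB-231 were detected in every library and summed to 6690 to 6742 CPM in the controls and 7635 to 7694 CPM after knockdown. CDKN2A, CDKN2B and MTAP, genes of band 9p21 that this line is known to lack, summed to 23.2 and 25.4 CPM in the controls and to 1.17 and 1.32 CPM after knockdown. Of 9 neural and embryonic genes, 7 were tested, of which 6 fell and 1 rose, and the list summed to 95.8 to 99.3 CPM in the controls and 27.0 to 31.0 CPM after knockdown, with ELAVL4 at 0 in every library. The 8 fibroblast genes summed to 142 to 146 against 101 to 109 CPM. DCN made up most of that sum and fell from 122 to 55.0 CPM, while 3 of 5 tested rose (COL1A1, LUM and PDGFRB) and 2 fell, DCN included. Other sums were 179 to 182 against 125 to 127 CPM for 6 leukocyte genes (2 of 2 tested fell), 94.7 to 102 against 54.0 to 56.1 CPM for 5 endothelial genes (4 of 4 tested fell) and 548 to 558 against 665 to 697 CPM for 7 luminal genes (4 of 5 tested rose and 1 fell). CD68 made up most of the leukocyte sum and fell from 175 to 123 CPM. The 4 untested leukocyte genes had at most 5 reads in a library. KDR made up most of the endothelial sum and fell from 70.7 to 32.9 CPM. KRT18 (243 to 279 CPM) and KRT19 (284 to 368 CPM) made up most of the luminal sum. The part of these marker genes in the results below was not tested. In bulk libraries, fewer cells of a kind and less RNA per cell cannot be told apart.

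Of the 9 members with the highest control level per length, 7 differed by less than 2-fold between groups, and MMP1 and ADAMTS9 fell by more. Of the 78 members, 40 had enough reads to be tested, and 15 of them rose and 17 fell at an edgeR adjusted p under 0.05. Across all 14012 genes tested, 27.3% rose and 28.8% fell by the same rule, 56.1% in all, against 80.0% of the tested members. By at least 2-fold, 6 members rose and 8 fell, where the shares of all genes were 3.07% and 8.54%. The median log2 fold change of the tested members was -0.14 and the median size 0.51, against -0.0047 and 0.24 over all genes tested. Control and knockdown values were separate in 35 of the 40 members, and in 77.8% of all genes tested. The filter on low counts can pass a member through the group in which it is high, so these shares are descriptions only.

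The 38 members that were not tested included 12 with 0 reads in every library: ADAM3A, ADAM5P, ADAM6, ADAM7, ADAM18, ADAM29, ADAM30, MMP8, MMP20, MMP23A, MMP26 and MMP27. The other 26 had at most 17 reads in any library. Both gelatinases were in this class, although they are among the MMPs most often measured in tumours. MMP2 had 11 and 9 reads in the controls against 5 and 6 after knockdown, and MMP9 had 7 and 12 against 3 and 1. ADAMTS19 had 9 and 17 reads in the controls and 0 in both KDM1A shRNA libraries, at least 8.45-fold lower when the knockdown group is set to 3 counts over both libraries. The aggrecanases ADAMTS4 (3 and 1 reads against 0 and 1) and ADAMTS5 (1 and 0 against 1 and 0) were near the limit of detection.

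The cluster of MMP genes on chromosome 11 (102391239 to 102826461, GRCh37) showed how unevenly neighbours were expressed. It holds 9 members, in the order MMP7, MMP20, MMP27, MMP8, MMP10, MMP1, MMP3, MMP12 and MMP13, all on the minus strand. Only MMP1 passed the filter, with 1394 and 1185 reads in the controls. None of the other 8 had more than 12 reads in a library, and 3 had none at all. The matrilysin MMP7 had 4 and 5 reads in the controls against 12 and 7 after knockdown, and the stromelysin MMP10 had 7 and 4 against 1 and 0. The collagenase MMP13 had 6 and 9 against 4 and 8, so its groups overlapped.

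RefSeq promoter sequences (table of build GRCh38.p14, 250 bases before to 50 after the start) were matched for 45 of the 78 members. The table held none for MMP1, ADAMTS1, ADAMTS9, ADAM28 or ADAMTS16 among the members with large changes. The letters TATAAA, those of a TATA box, were searched on both strands. They lay in the promoters of 10 of the 19 matched members that were not tested and in 0 of the 26 that were. Over all 35116 promoters of the table the share was 11.5%. The match began at -28 from the start in MMP26, -30 in MMP7 and ADAMTSL2 and -31 in MMP10. It began at -72 in MMP20, -78 in ADAMTS10, -92 in MMP21 and -110 in MMP8, and at 39 after the start in ADAM21. Matches in ADAMTS9-AS2 lay further upstream than that in MMP20. Matched members that were not tested had a median of 10 CpG dinucleotides and 49.7% GC in the promoter window, and the tested ones 29.5 CpG and 72.7% GC. The medians over all promoters of the table were 14 CpG and 58.7% GC. An AP-1 motif, searched as TGAGTCA on both strands, was found in 1 matched member, MMP7, and in 4.95% of all promoters. A match is a description of letters and not a site in use. The 150 bases before the start are shown 5′ to 3′ for 2 members that rose and 2 that fell. The same stretch is given for 2 members of the chromosome 11 cluster with few reads, each with a TATAAA match. Coordinates are from an exact match to GRCh37. In the promoter window ADAMTS12 and ADAM23 held 24 and 41 CpG, above the median of 14 over all promoters. TIMP4 and MMP14 held 12 and 10, below that median. Capitals mark the TATA box and the AP-1 motif.
ADAMTS12, chr5:33892096-33892245, minus strand, rose: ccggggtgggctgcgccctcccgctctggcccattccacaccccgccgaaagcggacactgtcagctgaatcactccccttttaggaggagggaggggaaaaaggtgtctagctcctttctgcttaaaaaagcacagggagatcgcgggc
TIMP4, chr3:12200413-12200562, minus strand, rose: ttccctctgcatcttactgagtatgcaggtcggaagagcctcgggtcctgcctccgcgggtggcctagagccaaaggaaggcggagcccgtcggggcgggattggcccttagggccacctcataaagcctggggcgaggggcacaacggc
ADAM23, chr2:207308106-207308255, plus strand, fell: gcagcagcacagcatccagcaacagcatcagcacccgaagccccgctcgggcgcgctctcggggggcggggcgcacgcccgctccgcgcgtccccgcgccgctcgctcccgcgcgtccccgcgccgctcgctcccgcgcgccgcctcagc
MMP14, chr14:23305644-23305793, plus strand, fell: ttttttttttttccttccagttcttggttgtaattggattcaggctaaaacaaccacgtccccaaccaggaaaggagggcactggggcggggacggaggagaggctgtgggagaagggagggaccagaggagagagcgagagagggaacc
MMP10, chr11:102651360-102651509, minus strand, not tested: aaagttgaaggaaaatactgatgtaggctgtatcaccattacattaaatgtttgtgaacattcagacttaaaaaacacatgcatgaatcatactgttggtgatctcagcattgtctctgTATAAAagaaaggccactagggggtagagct
MMP7, chr11:102401479-102401628, minus strand, not tested: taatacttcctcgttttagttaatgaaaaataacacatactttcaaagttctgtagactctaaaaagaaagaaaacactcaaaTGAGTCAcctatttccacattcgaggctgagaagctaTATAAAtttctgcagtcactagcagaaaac
In these stretches GC made up 60.7% in ADAMTS12, 65.3% in TIMP4, 80.7% in ADAM23 and 54.0% in MMP14, and 36.7% and 32.7% in MMP10 and MMP7. CpG dinucleotides numbered 8, 10, 28 and 4 in the tested genes and 0 and 2 in MMP10 and MMP7. The TATA box began at position -31 from the start in MMP10 and at -30 in MMP7, whose AP-1 motif began at -67. The GC content of the falling pair, ADAM23 and MMP14, spanned that of the rising pair.

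Levels per length, as CPM per kilobase of the canonical GENCODE transcript, placed TIMP1 far above every protease in both groups. In the controls TIMP1 stood at 640 ± 20.8 CPM per kilobase (SD, n = 2), ADAM9 at 165 ± 4.38, MMP14 at 142 ± 3.89, ADAM8 at 88.4 ± 7.07, TIMP2 at 87.0 ± 3.90 and ADAM15 at 75.2 ± 1.17. The values of ADAM8 and TIMP2 did not differ beyond their spread, and those of the others did not overlap. After knockdown TIMP1 stood at 490 ± 6.11, ADAM9 at 141 ± 0.384, TIMP2 at 119 ± 0.472, MMP14 at 108 ± 0.975, ADAM8 at 78.6 ± 0.416 and ADAM15 at 74.1 ± 0.349 CPM per kilobase. TIMP2 thus stood above MMP14 after knockdown and below it in the controls. ADAMTS1 moved from rank 16 to rank 28 of the members on this scale, from 4.89 to 0.508 CPM per kilobase, while ADAM28 moved from 0.366 to 2.63 and ADAMTS12 from 0.567 to 2.23.

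**Figure D1:**
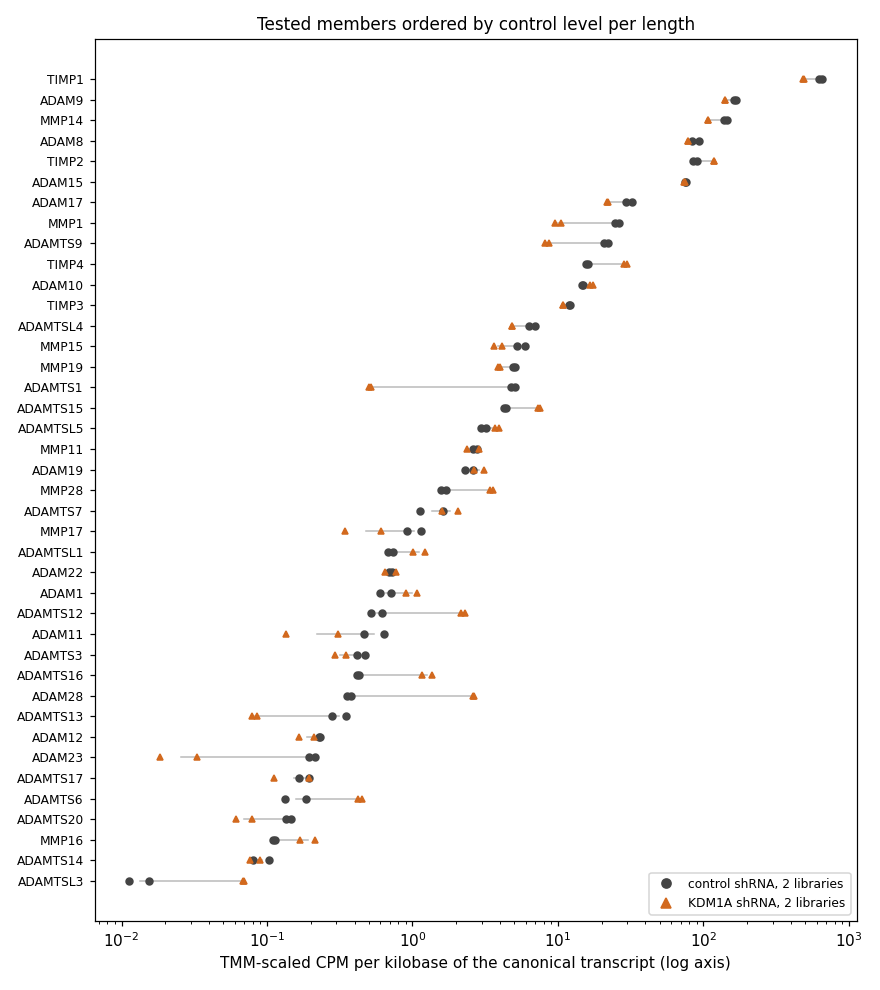
Level of each tested member as TMM-scaled CPM per kilobase of its canonical transcript (log axis), with circles for the 2 control shRNA libraries, triangles for the 2 KDM1A shRNA libraries and a grey line joining the group means. TIMP1 is highest in both groups, and the long grey lines belong to genes such as ADAMTS1 (4.89 to 0.508) and ADAM28 (0.366 to 2.63).

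The 4 inhibitors split into 2 that rose and 2 that fell, all by less than 2-fold. TIMP2 (chromosome 17, 76849059 to 76921469), which also takes part in activation of pro-MMP2 by MMP14, had 8244 and 7956 reads in the controls against 10407 and 11149 after knockdown. It rose from 318 ± 14.2 to 433 ± 1.72 CPM (log2 fold change of 0.45 with an SE of 0.04, adjusted p = 1.99e-07 in edgeR). TIMP4 (chromosome 3, 12194568 to 12200412) had 513 and 453 against 859 and 883 reads and rose from 18.9 ± 0.341 to 35.0 ± 1.16 CPM (0.89, SE 0.07, adjusted p = 8.25e-08). Both KDM1A shRNA libraries lay above both controls for each gene, and 170 bases of the TIMP4 exons lie under exons of SYN2 on the opposite strand.

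TIMP1 (chromosome X, 47441807 to 47446188) was the most abundant inhibitor, with 12881 and 12216 reads in the controls against 8954 and 9818 after knockdown. It fell from 492 ± 15.96 to 377 ± 4.70 CPM (log2 fold change of -0.38 with an SE of 0.04, adjusted p = 5.79e-07 in edgeR). TIMP3, which is held in the matrix and inhibits ADAM17 (chromosome 22, 33197691 to 33259028), had 1460 and 1343 against 1193 and 1295 reads. It was slightly lower, at 54.9 ± 0.596 and 49.98 ± 0.267 CPM (-0.14, SE 0.05, adjusted p = 0.0444), a call lost without control library 2 (0.0659), KDM1A shRNA library 1 (0.225) or library 2 (0.20) and in DESeq2 (0.227), with a range of 0.00484 to 0.227 over its alternatives. The TIMP transcripts together made up 862 and 905 CPM in the controls and 894 and 897 CPM after knockdown, so their sum overlapped between groups.

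Among the MMPs, the collagenase MMP1 and most of the expressed membrane-anchored enzymes fell, and MMP28 and MMP16 rose. MMP1 (chromosome 11, 102660132 to 102668891), the interstitial collagenase, had 1394 and 1185 reads in the controls against 448 and 537 after knockdown. It fell 2.55-fold, from 50.4 ± 2.27 to 19.8 ± 1.49 CPM (log2 fold change of -1.35 with an SE of 0.07, adjusted p = 1.11e-09 in edgeR). MMP11 (stromelysin-3), the other tested member of the collagenase and stromelysin class, had 157 and 153 against 129 and 168 reads, with overlapping groups and a 95% interval of -0.33 to 0.27 for its log2 fold change.

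MMP14 (MT1-MMP; chromosome 14, 23305769 to 23318250), the membrane-anchored collagenase that activates pro-MMP2, had 13849 and 13039 reads in the controls against 9481 and 10346 after knockdown. It fell from 527 ± 14.4 to 398 ± 3.61 CPM (-0.40, SE 0.04, adjusted p = 2.55e-07 in edgeR), and was the MMP with the highest level per length in both groups. MMP15 (MT2-MMP) had 571 and 581 against 354 and 430 reads and fell from 22.6 ± 1.86 to 15.7 ± 1.33 CPM (-0.52, SE 0.09). The fall of MMP17, an enzyme with a lipid anchor, was larger and rested on fewer reads, 59 and 67 against 20 and 38 (-1.08, SE 0.27, adjusted p = 0.00335). MMP16 (MT3-MMP) went the other way, with 34 and 32 against 47 and 64 reads (0.78, SE 0.24, adjusted p = 0.0117). The MMP16 call did not hold without KDM1A shRNA library 2 (0.133) and in DESeq2 (0.135), with a range of 0.00366 to 0.135 over its alternatives.

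Of the remaining MMPs, MMP28 (epilysin) had 104 and 102 reads in the controls against 200 and 228 after knockdown and rose from 4.04 ± 0.227 to 8.59 ± 0.343 CPM (1.09, SE 0.13, adjusted p = 6.19e-06 in edgeR). MMP19 had 442 and 385 against 309 and 324 reads and fell from 16.2 ± 0.448 to 12.7 ± 0.244 CPM (-0.35, SE 0.09, adjusted p = 0.00378), which did not pass in DESeq2 (0.0557; range 0.000874 to 0.0557 over its alternatives). Neither gene's groups overlapped. All MMP rows together held 622 and 643 CPM in the controls and 460 and 472 CPM after knockdown, and MMP14 made up most of that sum in both groups.

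**Figure D2:**
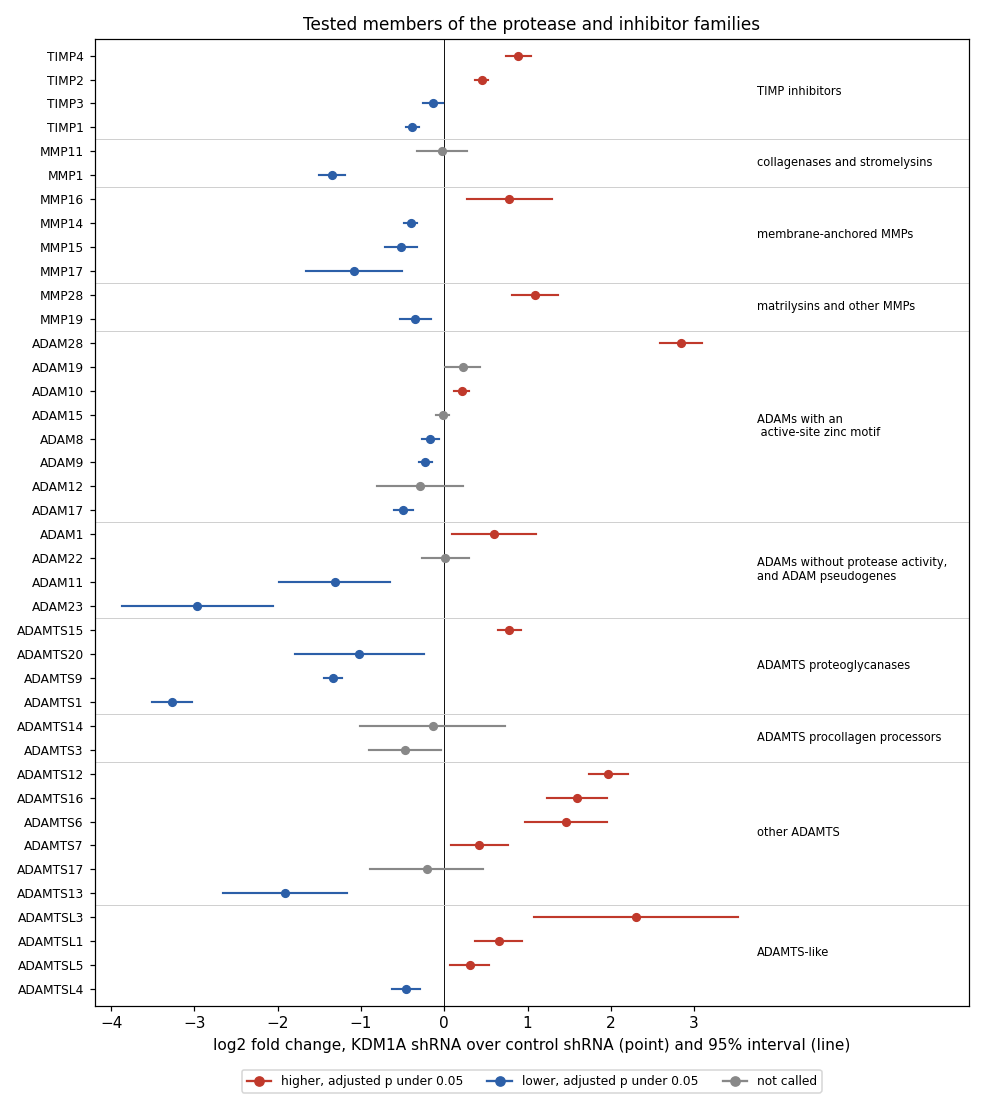
Log2 fold change of each of the 40 tested members, KDM1A shRNA over control shRNA, with its 95% interval and genes grouped by role from the TIMPs at the top to the ADAMTS-like genes at the bottom. Red marks the 15 members called higher, blue the 17 called lower and grey the 8 not called, and the largest fall is that of ADAMTS1 (-3.27) and the largest rise that of ADAM28 (2.84).

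The ADAMs with an active site that passed the test changed by less than 2-fold, with the exception of ADAM28. ADAM28 (chromosome 8, 24151582 to 24216527), whose substrates include an IGF-binding protein, had 67 and 64 reads in the controls against 443 and 475 after knockdown. It rose 7.18-fold, from 2.57 ± 0.0964 to 18.4 ± 0.0619 CPM (log2 fold change of 2.84 with an SE of 0.12, adjusted p = 9.38e-11 in edgeR). Related genes of the ADAM family beside it had few or no reads. ADAM7 had 0 reads in every library. ADAMDEC1, from the list of other metzincins, had 0 and 2 in the controls and 0 after knockdown.

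The 2 main sheddases moved in opposite directions. ADAM17 (TACE; chromosome 2, 9628615 to 9696861), which releases TNF and several EGF receptor ligands, had 3828 and 3110 reads in the controls against 2273 and 2522 after knockdown and fell from 136 ± 10.4 to 96.3 ± 2.01 CPM (-0.49, SE 0.05, adjusted p = 1.74e-06 in edgeR). ADAM10 (chromosome 15, 58881008 to 59041990), which cuts Notch receptors and cadherins, had 4451 and 3987 against 4681 and 4817 reads and rose from 165 ± 1.31 to 191 ± 6.19 CPM (0.21, SE 0.04, adjusted p = 0.000495). For both genes the groups did not overlap. Exons of IAH1 on the opposite strand cover 1645 bases of the ADAM17 exons. No source used here gives the strand setting of the counting, so reads of such pairs cannot be told apart. The same holds, over fewer bases, for 5 other tested members: TIMP4 (170 bases under SYN2), ADAMTSL5 (87, PLK5), ADAM9 (71, TM2D2), ADAM19 (62, CYFIP2) and ADAMTSL4 (43, MCL1).

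ADAM9, the most abundant ADAM (chromosome 8, 38854273 to 38962964), had 18500 and 16140 reads in the controls against 13908 and 14926 after knockdown and fell from 678 ± 18.0 to 579 ± 1.58 CPM (-0.23, SE 0.03, adjusted p = 6.25e-05 in edgeR). ADAM8, a sheddase best known from leukocytes, had 7286 and 7391 against 6161 and 6588 reads (-0.17, SE 0.05, adjusted p = 0.00696). The ADAM8 call did not hold without KDM1A shRNA library 1 (0.0627) or library 2 (0.0796), its value was -0.09 without control library 2, and its alternatives ranged from 6.66e-15 to 0.0796. ADAM15 had 5850 and 5417 reads against 5230 and 5597 and was not called, with a narrow 95% interval of -0.10 to 0.06 on the log2 scale. ADAM12 (49 and 44 against 40 and 34 reads; interval -0.80 to 0.22) and ADAM19 (402 and 413 against 481 and 444 reads; 0.01 to 0.43) were not called either. ADAM19 passed as higher in 4 alternatives, with adjusted p-values of 0.00476 to 0.505 over all of them.

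Among ADAMs that lack protease activity, ADAM23 and ADAM11 fell, while ADAM22 was not called. All 3 are cell surface proteins known in neurons as receptors of LGI proteins. ADAM23 (chromosome 2, 207308256 to 207485851) had 36 and 30 reads in the controls against 5 and 3 after knockdown (log2 fold change of -2.97 with an SE of 0.42, adjusted p = 3.14e-05 in edgeR), 12.6% of its control level. ADAM11 had 57 and 71 against 34 and 16 reads (-1.32, SE 0.31, adjusted p = 0.00237). Its value was -2.01 without KDM1A shRNA library 1 and -0.82 without library 2, with adjusted p-values of 1.06e-06 to 0.0392 over its alternatives. ADAM22 had 184 and 159 against 147 and 190 reads, with an interval of -0.27 to 0.29. The pseudogene ADAM1 had 34 and 37 against 46 and 59 reads (0.60, SE 0.24, adjusted p = 0.0439). That call was lost in 7 of its 14 alternatives. These included DESeq2 (0.282), limma-voom (0.0546), upper-quartile scaling (0.0525) and scaling to genes typical of MDA-MB-231 (0.0706). The ADAM1 call was also lost without control library 1 (value 0.47), KDM1A shRNA library 1 (value 0.71) or library 2 (value 0.47). Its adjusted p-values ranged from 0.0308 to 0.282 over the alternatives.

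The proteoglycan-cutting ADAMTS enzymes held the largest fall of the tested members. ADAMTS1 (chromosome 21, 28208074 to 28217728), which cuts aggrecan and versican, had 699 and 598 reads in the controls against 62 and 69 after knockdown. It fell 9.63-fold, from 25.4 ± 1.03 to 2.63 ± 0.0604 CPM (log2 fold change of -3.27 with an SE of 0.11, adjusted p = 1.21e-11 in edgeR). Its neighbour ADAMTS5 was near 0 in every library. ADAMTS9 (chromosome 3, 64501330 to 64673676), also a versican-cutting enzyme and the most abundant ADAMTS, had 4526 and 3819 reads against 1598 and 1615. It fell from 163 ± 8.18 to 64.6 ± 2.92 CPM (-1.34, SE 0.05, adjusted p = 3.05e-11). The antisense transcript ADAMTS9-AS2 had 8 and 12 against 4 and 2 reads and was not tested.

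ADAMTS15, another enzyme of this class, rose. It had 685 and 641 reads in the controls against 1086 and 1133 after knockdown, or 26.0 ± 0.597 and 44.6 ± 1.01 CPM (0.78, SE 0.06, adjusted p = 1.09e-07 in edgeR). ADAMTS20 was lower on few reads, 25 and 21 against 12 and 10 (-1.02, SE 0.36, adjusted p = 0.0257). That call was lost when any 1 library was left out (0.0587 to 0.177) and in DESeq2 (0.256), with a lowest value of 0.0182 over its alternatives. Members of the class thus changed in both directions, with 3 lower and 1 higher of the 4 tested.

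Of the 8 tested ADAMTS enzymes outside that class, 4 rose, 1 fell and 3 were not called, 2 of the latter being procollagen processors. ADAMTS12 (chromosome 5, 33523640 to 33892124), which cuts the cartilage protein COMP, had 141 and 108 reads in the controls against 445 and 507 after knockdown. It rose 3.92-fold, from 4.86 ± 0.575 to 19.1 ± 0.756 CPM (log2 fold change of 1.97 with an SE of 0.11, adjusted p = 2.07e-09 in edgeR). ADAMTS16 (57 and 50 against 139 and 176 reads) rose from 2.09 ± 0.0476 to 6.31 ± 0.719 CPM (1.59, SE 0.17, adjusted p = 1.67e-06). ADAMTS6, a fibrillin-binding relative of ADAMTS10, had 26 and 33 against 74 and 85 reads (1.46, SE 0.23, adjusted p = 7.24e-05). In all 3 the KDM1A shRNA libraries lay above both controls.

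ADAMTS7, the closest relative of ADAMTS12, had 166 and 216 against 272 and 227 reads (0.42, SE 0.16, adjusted p = 0.0367 in edgeR). Its call was lost in 6 of its 15 alternatives. Among them were the fits without control library 1 (value 0.17) and without KDM1A shRNA library 1 (value 0.23). Its value was 0.69 without control library 2. The groups overlapped in CPM. Reads without a unique alignment stand in an HTSeq summary line, so ADAMTS7 reads that also match its pseudogene copies may be missing. Their number was not tested. ADAMTS13, the protease of von Willebrand factor, fell, with 33 and 37 reads in the controls and 9 in each KDM1A shRNA library (-1.91, SE 0.35, adjusted p = 0.000283). Neither tested procollagen processor was called. ADAMTS3 had 70 and 71 against 52 and 47 reads, with an interval of -0.91 to -0.04 and an adjusted p of 0.0615, and ADAMTS14 had 12 and 14 against 12 and 11 with an interval of -1.01 to 0.73.

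Of the ADAMTS-like genes, several of whose products bind matrix microfibrils, 3 rose and 1 fell. ADAMTSL4 had 709 and 714 reads in the controls against 487 and 523 after knockdown and fell from 27.9 ± 2.09 to 20.3 ± 0.0456 CPM (-0.46, SE 0.08, adjusted p = 0.000143 in edgeR). ADAMTSL1 (chromosome 9, 17906561 to 18910948) had 141 and 139 against 226 and 203 reads and rose (0.65, SE 0.13, adjusted p = 0.000735). It lies on the short arm of chromosome 9, as do CDKN2A and MTAP, which stood at 4.99% and 5.65% of their control level. ADAMTSL3 had only 3 and 2 reads in the controls against 12 and 13 after knockdown (2.30, SE 0.57, adjusted p = 0.00322), and its call was lost in DESeq2 (0.0784; range 0.00283 to 0.0784 over its alternatives). ADAMTSL5 was slightly higher, with 212 and 210 against 238 and 271 reads (0.31, SE 0.11, adjusted p = 0.0279). Its call was lost in 6 of its 15 alternatives. Among them were the fits without control library 1, KDM1A shRNA library 1 or library 2. Its value was 0.24 to 0.37 with 1 library left out, and its adjusted p reached 0.19 over the alternatives.

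**Figure D3:**
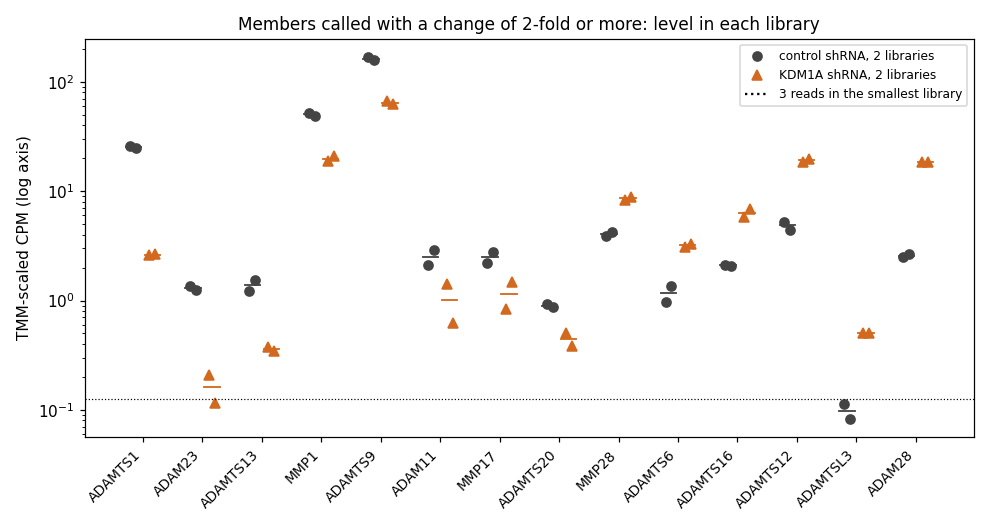
TMM-scaled CPM (log axis) in each library for the 14 members called with a change of 2-fold or more, ordered from the largest fall to the largest rise, with circles for control shRNA, triangles for KDM1A shRNA, short lines for the group means and a dotted line at 3 reads in the smallest library. The 14 were picked by their call in these same libraries, so that their groups do not overlap adds no support. Groups did not overlap in 77.8% of all genes tested. The KDM1A shRNA values of ADAM23 and the control values of ADAMTSL3 lie near the dotted line.

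The deepest falls among tested members were those of ADAMTS1, at 10.4% of its control level, and ADAM23, at 12.6%. ADAMTS19, which was not tested, had 9 and 17 reads in the controls and 0 in both KDM1A shRNA libraries. Of the 9p21 genes that the line is known to lack, CDKN2A had 323 and 329 reads in the controls against 13 and 19 after knockdown. MTAP had 271 and 256 against 15 and 14, and CDKN2B had 27 and 31 against 0 and 1. No tested member was lower by 16-fold or more, and the 8 members lower by 2-fold or more kept 10.4% (ADAMTS1) to 49.4% (ADAMTS20) of their control level. ADAMTS1 stood between -3.34 and -3.22 on the log2 scale, MMP1 between -1.43 and -1.28 and ADAMTS9 between -1.41 and -1.28 over all 15 alternatives. The part of the 9p21 and neural genes in these falls was not tested.

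Genes that activate, restrain or serve these proteases moved in both directions. These 7 lists were written from general knowledge with earlier results of these data known. Of 9 tested genes of plasminogen activation, a protease cascade that feeds MMP activation, 4 rose and 4 fell (median log2 fold change 0.21, against -0.0047 over all genes). The urokinase gene PLAU rose from 46.9 to 99.7 CPM (1.09, SE 0.05) and its relative PLAT rose (0.31, SE 0.04), while the inhibitor SERPINE2 (-1.11, SE 0.07) fell. Among 11 tested activators and other inhibitors of metalloproteases, 3 rose and 4 fell (median 0.0099). The falls were large, in LCN2, which binds and stabilises MMP9 (-3.82, SE 0.06), the protease inhibitor TFPI2 (-2.24, SE 0.11) and the proprotein convertases PCSK6 (-2.32, SE 0.13) and PCSK5 (-1.37, SE 0.16).

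Partners of ADAM10 and ADAM17 were higher in 6 and lower in 4 of 12 tested (median 0.18). RHBDF2, encoding iRhom2 that brings ADAM17 to the surface, fell from 98.8 to 54.6 CPM (-0.85, SE 0.05), and its paralogue RHBDF1 rose (0.27, SE 0.06). The invadopodium scaffold SH3PXD2B fell from 35.5 to 12.3 CPM (-1.53, SE 0.08), while its paralogue SH3PXD2A rose from 123 to 148 CPM (0.27, SE 0.04). The tetraspanins that accompany ADAM10 moved both ways, as TSPAN15 (0.54, SE 0.06), TSPAN17 (0.50, SE 0.06) and TSPAN14 (0.34, SE 0.05) rose while TSPAN5 (-0.34, SE 0.04) and TSPAN33 (-1.50, SE 0.26) fell. TSPAN10 had at most 6 reads in a library and was not tested.

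Membrane proteins that ADAMs shed were lower in 15 and higher in 9 of 31 tested (median -0.11). ICAM1 fell from 333 to 149 CPM (-1.16, SE 0.04), and the proteoglycan SDC4 (-0.90, SE 0.03), N-cadherin CDH2 (-2.82, SE 0.13) and the decoy receptor IL1R2 (-2.71, SE 0.15) also fell. Matrix substrates were lower in 13 and higher in 4 of 20 tested (median -0.27), with NID1 (-5.76), FN1 (-1.11), SPARC (-4.06) and COL2A1 (-5.31) the 4 with the smallest p. Versican, VCAN, named after its values were seen because ADAMTS1, ADAMTS9, ADAMTS15 and ADAMTS20 are known to cut it, had 563 and 385 reads in the controls against 15 and 14 after knockdown (-4.98, SE 0.22). Of these 4 enzymes, ADAMTS1, ADAMTS9 and ADAMTS20 were lower by less than VCAN, and ADAMTS15 rose.

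Transcription factors of the AP-1, ETS and RUNX families, known regulators of MMP promoters, were lower in 9 and higher in 2 of 14 tested (median -0.23), mostly by small amounts. ETS1 (-0.32, SE 0.04) and JUNB (-0.39, SE 0.07) fell, and RUNX1 (0.37, SE 0.04) and ETV1 (0.24, SE 0.04) rose. Of 2 tested genes among other metzincins, PAPPA rose (1.18, SE 0.29, adjusted p = 0.00294 in edgeR; 20 and 16 against 43 and 37 reads) and the procollagen C-proteinase BMP1 was not called (0.11, SE 0.05). No list test was made, and the counts are to be read beside the 56.1% of all genes called.

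**Figure D4:**
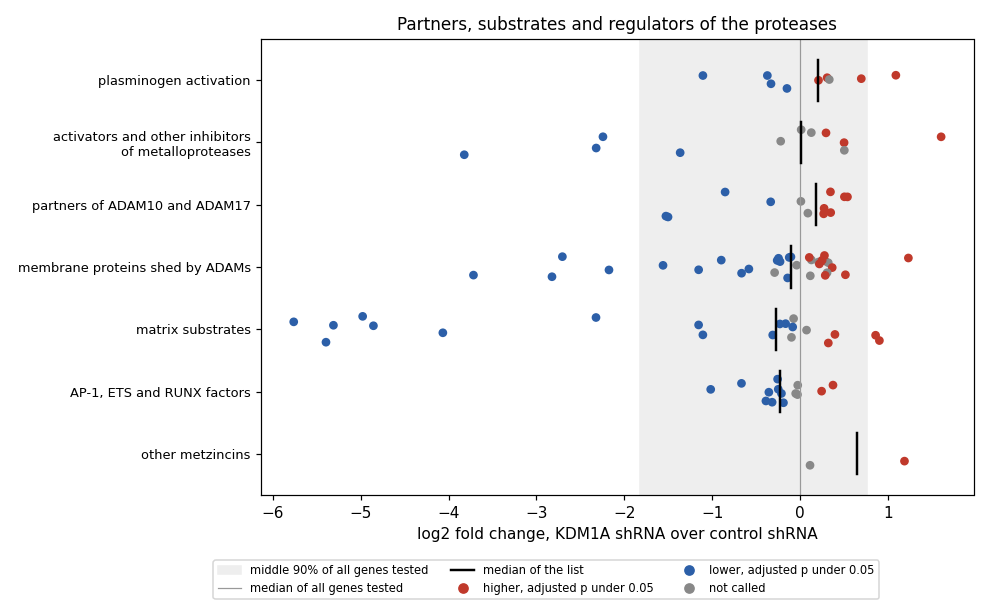
Log2 fold change of each tested gene of the 7 lists of partners, substrates and regulators, KDM1A shRNA over control shRNA, coloured by call, with a black bar at each list's median and grey shading over the middle 90% of all genes tested (-1.83 to 0.75). Matrix substrates reach furthest to the left, down to NID1 at -5.76, while the AP-1, ETS and RUNX factors lie within the shading.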

How the data were processed

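RNA was measured in 4 libraries of 100-base single-end reads. Per the submitters' processing notes, the tools were CASAVA 1.8.2 and TopHat2 2.0.8b, besides HTSeq, and the build was hg19. The authors deposited raw read counts for each gene symbol, and 5 HTSeq summary lines per file were left out. The annotation release and the counting mode are not given in the sources used here.

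All genes were fitted with edgeR 4.0.16 in R 4.3.3: TMM scaling, a filterByExpr filter with its defaults (count 10, total 15), and quasi-likelihood F-tests of group without further terms. Benjamini-Hochberg adjustment ran over 14012 genes, with a threshold of 0.05, so adjusted p-values of members are those over all genes. Each SE was taken as the size of the log2 fold change over the root of its F, and intervals are 95%. Permuting 2 against 2 libraries exactly reaches no two-sided p under 0.333, so it was not used. Each library was counted as a replicate. Within both groups the libraries differed beyond sampling noise (chi-square per degree of freedom 3.97 in the controls and 1.60 after knockdown). Such spread can also be technical, so it does not show that the libraries come from separate cultures.

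Positions and canonical transcript lengths are from GENCODE on GRCh37, which is hg19, and 78 of 78 members matched, 2 of them by a synonym. Values in every library are given for members past the threshold with 1 CPM in a group, for every TIMP and for ADAM10, ADAM17, MMP2, MMP9 and MMP14. Up to 4 called genes per list with the smallest p are named, except 1 that is not reported here. Others that are named were chosen after their values were seen. Members and lists were chosen with earlier results of these data known. Alternatives included DESeq2 1.42.0 and voom of limma 3.58.1.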

Additional observations from a re-analysis of the deposited data

How the results depend on the processing

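Of the 32 members called, 23 kept their direction and their side of the threshold in each of the 15 alternatives that gave them a value, 9 lost the call in at least 1, and none changed direction. With a minimum mean of 5 CPM, fewer members were tested, and 9 were called higher, 3 of them by 2-fold or more, and 3 were lower by 2-fold or more. Over the fits without 1 library, 12 to 16 members were higher and 15 to 19 lower, and 6 to 10 were lower by 2-fold or more. With at least 1 count in total as the only filter, 16 were higher and 20 lower. In DESeq2 10 were higher and 15 lower. Scaling to genes typical of MDA-MB-231 gave 12 higher and 18 lower members, shifted the median of all genes by -0.07 on the log2 scale, and made the genes called higher 36.9% of all calls, against 48.7% as reported.

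Reversals occurred only in members that were not called. ADAM22 stood at -0.015 with upper-quartile scaling, -0.058 with scaling to MDA-MB-231 genes, -0.012 with a minimum mean of 5 CPM, -0.0027 with thinned counts, and -0.13 to 0.13 with 1 library left out. MMP11 stood at 0.0029 with thinned counts and at -0.17 to 0.10 with 1 library left out, ADAMTS14 at -0.32 to 0.044 (the latter without control library 2) and ADAMTS17 at -0.67 to 0.13. The cause of these changes was not tested.

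With the replicate number as a block, 16 members were higher and 17 lower, 6 and 8 of them by 2-fold or more, and 8142 of all genes were called against 7861. Under the block every called member stayed called, and ADAM19 passed as higher (edgeR adjusted p = 0.0275, range 0.00476 to 0.505 over its alternatives). Deviations of libraries with the same number correlated at 0.02 across genes, and nothing in the labels pairs them. Low depth limits ADAM23, ADAMTS20, ADAMTSL3 and the 38 members that were not tested, where a difference may be present below detection.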
